A study of Mus musculus with 22 samples.

Results

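B cell lymphomas of mice labelled as carrying a cyclin D2 (Ccnd2) transgene were compared after transplantation into NSG mice. Tumours with a mantle cell lymphoma-like immunophenotype (MCL-like) were set against a tumour labelled non-MCL. The members are the transplant libraries, taken by the submitters' immunophenotype field. They number 8 of the 22 libraries in the series, 6 of them MCL-like and 2 non-MCL. The 6 MCL-like libraries came from 4 mice of origin, called A (replicates 1 and 2), B (replicates 3 and 4), C (replicate 5) and D (replicate 6). Both non-MCL libraries came from the tumour of a single mouse, E, grown in 2 hosts. Differences between the groups are therefore differences between the MCL-like tumours and this tumour. They are given as values and directions, with no p-value.

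Per the labels, the tumours of all 8 libraries have the genotype R26-Ccnd2tg/tg;p53fl/fl;Mb1Cretg/+ on a mixed 129/C57Bl6 background. Both groups are thus labelled with the Ccnd2 transgene in the Rosa26 locus and the floxed p53 alleles. Cre under Mb1 (Cd79a) acts in the B lineage, and tumours of other cells are not modelled. The labels give no age, treatment or time in the host. NSG hosts lack mature T, B and NK cells but keep myeloid, erythroid and stromal cells. The tissue is given as spleen. The other 14 libraries are primary tumours: 4 MCL-like and 3 Ccnd2 non-MCL with the transgene, and 7 with deleted p53 only.

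Mantle cell lymphoma is a mature B cell neoplasm with high cyclin D, a protein that with CDK4 or CDK6 phosphorylates Rb and moves cells through G1. B1a cells are innate-like B cells that express the surface protein CD5 and unswitched IgM, renew themselves in the adult, and are enriched for particular germline V segments. Precursor B cells express the recombinase genes Rag1 and Rag2, germinal centre B cells divide fast under the repressor Bcl6, and class switching replaces the IgM constant region with that of IgG, IgA or IgE.

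Total counts were 3050785 to 5825652 in the MCL-like libraries, and 3780128 and 3934589 in the non-MCL libraries. Levels below are CPM, that is, counts scaled by library size and the trimmed-mean (TMM) method. Coordinates are GRCm38, from GENCODE M21. Differences are MCL-like minus non-MCL on the log2(CPM + 1) scale, which understates changes of low genes. Hosts were averaged within an origin mouse and then over the 4 MCL-like origins, and ± is the SD over those 4. Of 12680 genes that passed a low-count filter, a gene was called where the difference was at least 2 (4-fold) and neither non-MCL library lay within the range of the 6 MCL-like libraries.

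Some labels and libraries stood apart. The titles of all 6 MCL-like transplants say non-MCL, while their immunophenotype field says MCL-like; the field was followed. The library of origin C differed at least 4-fold from the B hosts in 11 and 21 genes, where the B hosts differed from each other in 11. C also carried the leading heavy chain V segment of B, and the labelled numbers of mice B and C differ in a single digit, so whether C is a tumour of its own was not tested. MCL-like replicate 1 held much erythroid RNA, with 68257 CPM of the haemoglobin gene Hba-a1 against 121 to 5954 CPM in the other MCL-like libraries. In all 8 libraries, 412 genes (3.25% of 12680) were called higher and 354 (2.79%) lower in MCL-like transplants, 766 (6.04%) in all. With B and C counted as 1 origin, 415 genes were called higher and 340 lower. Without both hosts of A, 521 were called higher and 548 lower.

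Ccnd2 (chr6:127125162-127152193) itself went against the label of the non-MCL group. The 6 MCL-like libraries held 1702, 2558, 2043, 1955, 2137 and 2356 CPM, and the non-MCL libraries 43.5 and 92.6 CPM. The MCL-like values lay close together and far above both non-MCL values, a difference of 5.05 ± 0.10. Primary tumours labelled Ccnd2 non-MCL held 442 to 1818 CPM and MCL-like primaries 1372 to 2195 CPM, so the non-MCL transplants were below every primary library of either label. Ccnd2 levels of the 7 p53-only primaries, labelled without the transgene, are not set beside these values here. No source used here says whether transgene transcripts are counted under Ccnd2. The Ccnd2 transgene of the non-MCL group is therefore taken from the labels only. The targeted gene Trp53 was at 1.005 to 10.02 CPM (median 2.81) in MCL-like and 8.04 and 8.19 CPM in non-MCL transplants, and was not called; 3' tags outside the deleted exons do not check the deletion.

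**Figure D1:**
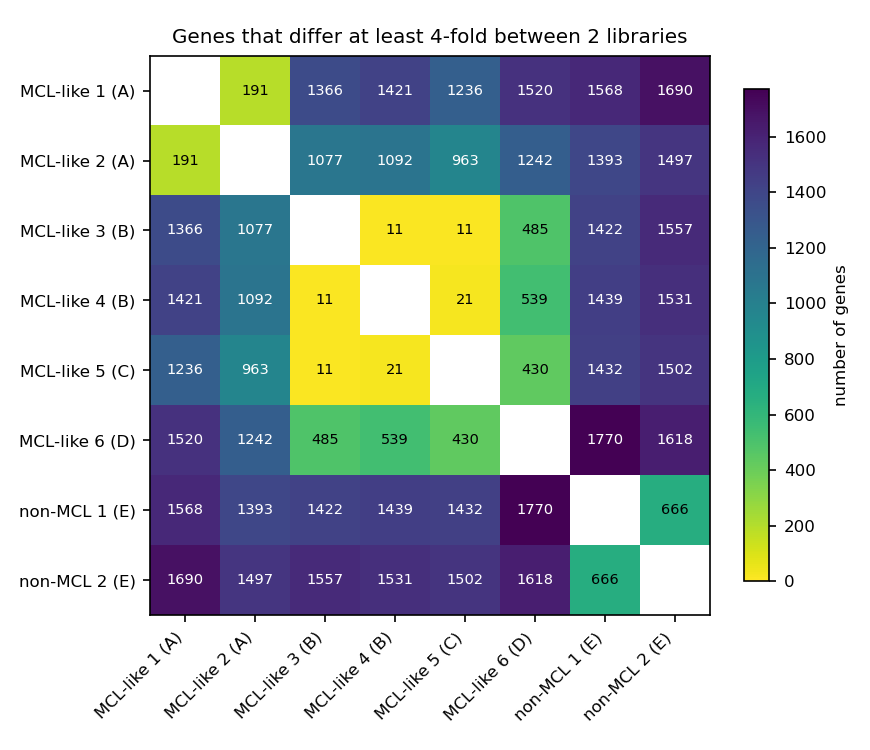
Number of the 12680 genes that differed at least 4-fold between each pair of the 8 transplant libraries (rows and columns, origin mouse in brackets). Hosts of B, and the library of C, differed in 11 to 21 genes, the A hosts in 191, the E hosts in 666, and libraries of different groups in 1393 to 1770.

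Pairs of libraries show how these tumours sort. The 2 hosts of B differed at least 4-fold in 11 genes (0.0868%), those of A in 191 (1.51%) and those of E in 666 (5.25%). Leaving aside the pairs of B with C, libraries of different MCL-like origins differed in 430 to 1520 genes. Libraries of different groups differed in 1393 to 1770. The largest number within the MCL-like group, between replicate 1 (A) and replicate 6 (D), thus lay inside the range between groups. The fewest between different origins outside B and C was found for C and D.

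The leading heavy V segment differed between A, D and the pair of B and C, which shared it. Heavy chain V segments are the germline pieces that a B cell joins once, and cells of the same clone share it. The 3 heavy segments that led in the MCL-like tumours are shown because they set these tumours apart, from the GENCODE M21 transcripts on GRCm38. The kappa segment Igkv14-126 is shown because it accompanied Ighv11-2. Each is the last 90 bases, 5′ to 3′, and the capitals mark the tyrosine, tyrosine or phenylalanine, and cysteine codons that close framework 3.
Ighv1-53 (chr12:115158403-115158835, minus strand): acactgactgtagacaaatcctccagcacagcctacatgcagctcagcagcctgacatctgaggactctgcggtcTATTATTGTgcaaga
Ighv1-69 (chr12:115623161-115623595, minus strand): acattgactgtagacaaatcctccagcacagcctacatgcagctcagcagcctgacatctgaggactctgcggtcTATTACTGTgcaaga
Ighv11-2 (chr12:114048241-114048812, minus strand): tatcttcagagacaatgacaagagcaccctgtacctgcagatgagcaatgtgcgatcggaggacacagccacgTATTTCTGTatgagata
Igkv14-126 (chr6:67896172-67896642, plus strand): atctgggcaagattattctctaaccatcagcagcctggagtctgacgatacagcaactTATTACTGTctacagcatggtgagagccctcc

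The first 2 of these heavy segments shared 88 of their last 90 bases (97.8%), and Ighv11-2 shared 61.1% and 63.3% with them. Reads of such near-identical copies can be split in counting. Even so, each MCL-like library held counts of essentially 1 heavy segment. In the A hosts all 102 and all 35 heavy V counts were Ighv1-53 (exact 95% binomial interval of the first 96.4% to 100%, which covers counting error only). In the B hosts all 10 and all 6 were Ighv1-69, as were all 12 in C. These are few counts, and the lower ends of their intervals were 69.2%, 54.1% and 73.5%. In D, 62 of 63 were Ighv11-2 (98.4%, interval 91.5% to 99.96%), and 62 of its 92 kappa V counts were Igkv14-126 (67.4%, 56.8% to 76.8%). Pairing of an Ighv11-2 heavy chain with an Igkv14-126 kappa chain is known from B1a cells that bind phosphatidylcholine.

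The non-MCL tumour showed few heavy V counts. Ighv5-6 led with 3 of 5 and 2 of 5 counts, too few to name a clone. Its leading kappa segment differed between hosts: Igkv19-93 held 28 of 75 counts in host 1, and Igkv1-135 held 6 of 11 in host 2. The leading kappa segment also differed between the hosts of A. There Igkv2-109 held 53 of 161 counts in host 1, and Igkv9-119 held 57 of 198 in host 2. Igkv2-109 led in both hosts of B and in C. Igkv2-109 was counted in 21 of the 22 libraries, so it marks no clone here.

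Constant regions separated the groups. The MCL-like tumours expressed IgM, and the non-MCL tumour IgG1. Ighm (chr12:113418558-113422730), the IgM heavy chain, was at 40829, 15790.0, 7317, 7863, 11895 and 6572 CPM in the MCL-like libraries and 9.30 and 26.3 CPM in the non-MCL libraries. Every MCL-like library was far above both non-MCL ones, a difference of 9.37 ± 0.88. Surface IgM may have entered the immunophenotype by which the groups were taken, so this gap may be set by the grouping. Ighg1, the IgG1 heavy chain, was at 1.002, 1.12, 0, 0, 2.95 and 0.201 CPM against 3421 and 3529 CPM, a difference of -10.94 ± 0.89. The hosts of E were alike in this gene, and 2 MCL-like libraries held no count of it.

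As a share of heavy chain constant counts, Ighm made up 98.6% to 99.8% in the 6 MCL-like libraries. In the non-MCL libraries it made up 0.255% (interval 0.180% to 0.351%) and 0.670% (0.541% to 0.820%). Ighg1 made up 93.8% (93.4% to 94.2%) and 90.1% (89.6% to 90.6%) there, and Ighg2b 3.98% and 9.18%. Ighg2b, the IgG2b chain, was at 145 and 359.6 CPM in the E hosts and at most 8.64 CPM in MCL-like libraries. Igha, the IgA chain, was at 67.8 and 2.54 CPM in the E hosts and was not called.

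Ighd, the IgD chain, was called higher in MCL-like transplants, at 6.97 to 87.2 CPM (median 38.4) against 0.251 and 0 CPM. It was lowest in both hosts of A and highest in D. Ighg3 was also called higher, at 67.1, 93.96, 46.4, 54.8, 102 and 1.61 CPM against 0.251 and 0; the D library was low, near the non-MCL values. Of light chains, Igkc was high in both groups, at 7192 to 54133 CPM (median 17014) against 5919 and 8151 CPM. Iglc2 and Iglc3, lambda constants that share reads, were called higher, Iglc2 at 392 to 727 CPM (median 595) against 4.27 and 152 CPM, with a wide gap between the 2 E hosts. Neither call held without E host 1, where the differences were 1.88 for Iglc2 and 1.57 for Iglc3. In all, 5 of the 10 immunoglobulin constant genes that passed the filter (of 12 listed) were called higher and 2 lower, against 3.25% and 2.79% of all genes.

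**Figure D2:**
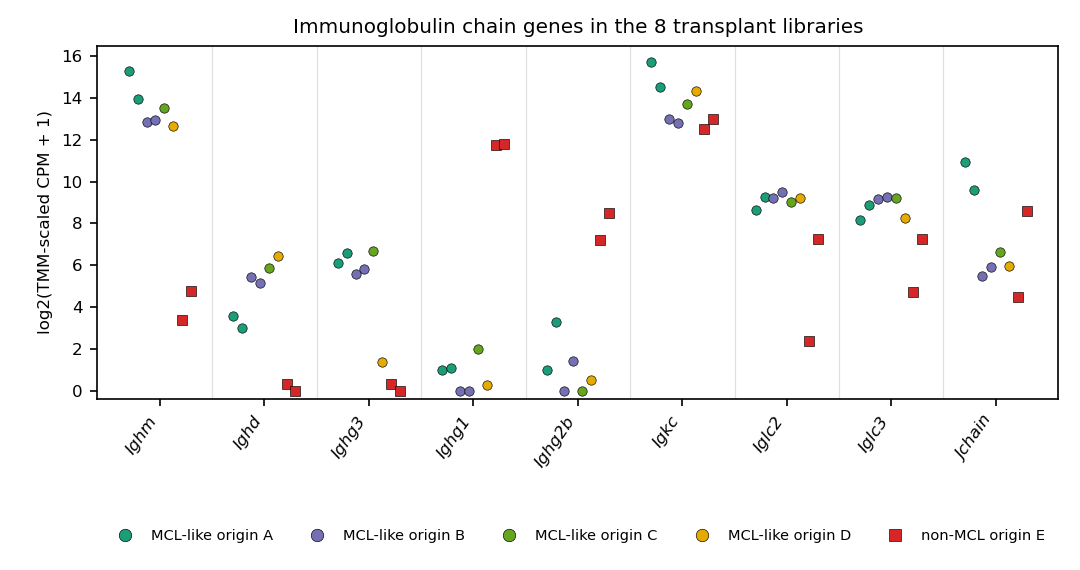
Levels of 8 immunoglobulin constant genes and Jchain, as log2(TMM-scaled CPM + 1), in each of the 8 libraries (circles MCL-like, squares non-MCL, colour by origin mouse). Ighm and Ighd are high in MCL-like libraries and Ighg1 and Ighg2b in the non-MCL ones, while for Igkc and Jchain 1 of the 2 non-MCL libraries lies within the MCL-like range.

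Outside the immunoglobulins, differences of over 5 on the log2 scale were found in both directions. Over all genes the median difference was 0.02. The 12 largest increases and decreases among called genes of at least 20 CPM follow. Fras1, an extracellular matrix protein of basement membranes, was at 127 to 233 CPM (median 215) in MCL-like libraries and 0.502 and 0.282 CPM in non-MCL ones, 7.16 ± 0.36. Zbtb32, a transcriptional repressor that limits B1 and memory B cell responses, was at 94.4, 145, 103, 108, 81.4 and 244 CPM against 0.251 and 0.282 CPM, 6.64 ± 0.68. Both genes were essentially off in both E hosts and on in all 6 MCL-like libraries.

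Hepacam2, an adhesion molecule of the immunoglobulin superfamily, was at 129 to 329 CPM (median 221) against 1.26 and 1.98 CPM, 6.41 ± 0.54. Adm, the peptide adrenomedullin, was at 16.3, 35.97, 183, 188, 245 and 116 CPM against 0.502 and 0.282 CPM, 6.28 ± 1.47. Adm was lowest in the A hosts and highest in C. St8sia6, a sialyltransferase, differed by 5.99 ± 0.76 and Shisa8, a membrane protein, by 5.74 ± 1.42.

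Ly6d, a surface marker of B lineage commitment, was among the most abundant of these genes, at 1156 to 2401 CPM (median 1562) against 41.5 and 25.1 CPM, 5.59 ± 0.47. Plac8, a small cysteine-rich protein, was at 434 to 1062 CPM (median 776) against 13.1 and 15.5 CPM, 5.49 ± 0.46. In both genes the lowest MCL-like library stood far above the higher E host. Ifi213, of the interferon-inducible p200 family, differed by 5.39 ± 1.20, and Ahnak2, a large scaffold protein, by 5.04 ± 0.97. Fah, the last enzyme of tyrosine breakdown, differed by 5.19 ± 2.15, with the A hosts at 4.76 and 7.81 CPM and B, C and D at 106 to 171 CPM.

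In the other direction, Reln, the secreted glycoprotein reelin, was at 551 and 677 CPM in the E hosts and 17.3, 0.836, 1.05, 2.40, 4.43 and 0.402 CPM in the MCL-like libraries, -7.54 ± 0.97. Only the first host of A rose above 5 CPM. Csrp2, a LIM protein, was at 189 and 388 CPM against 0.201 to 4.06 CPM (median 3.21), -6.50 ± 0.93. Dclk2, a microtubule-linked kinase, was at 144 and 415 CPM against 0 to 14.8 CPM (median 1.61), -6.48 ± 1.33. Map3k15, a stress kinase of the ASK family, was at 141 and 356 CPM against 0.603 to 11.02 CPM (median 2.76), -5.99 ± 1.12. Csrp2, Dclk2 and Map3k15 were each higher in E host 2 than in host 1.

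Bach2 (chr4:32238804-32586108), a repressor that holds B cells back from plasma cell fate and is needed for class switching, was at 1548 and 583 CPM in the E hosts and 16.5, 24.8, 49.2, 59.2, 46.1 and 2.61 CPM in MCL-like libraries, -5.49 ± 1.80. The D library was the lowest. Slc4a8, a bicarbonate transporter, was at 124 and 153 against 0 to 9.52 CPM (median 2.40), -5.49 ± 1.29. Zfp704, a zinc finger protein, was at 78.9 and 73.1 against 0 to 3.90 CPM (median 0.720), -5.25 ± 0.80.

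For the remaining lower genes the MCL-like libraries were at or near 0. Rbm44, an RNA-binding protein known from germ cells, was at 79.4 and 50.5 CPM in the E hosts and at most 0.558 CPM in MCL-like libraries. Qrfp, a neuropeptide precursor, was at 41.5 and 72.8 CPM against at most 0.184. The other 3 differed strongly between the hosts of E. Rd3l was at 222 and 31.9 CPM, the calcium release channel gene Ryr2 at 189 and 11.9, and Hsd17b13, a lipid droplet enzyme, at 105 and 14.96. Hsd17b13 had no count in any MCL-like library. Against a floor of 3 counts over the 6 libraries, that is at least 474-fold below the mean of the E hosts. Host 1 dominates that mean.

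**Figure D3:**
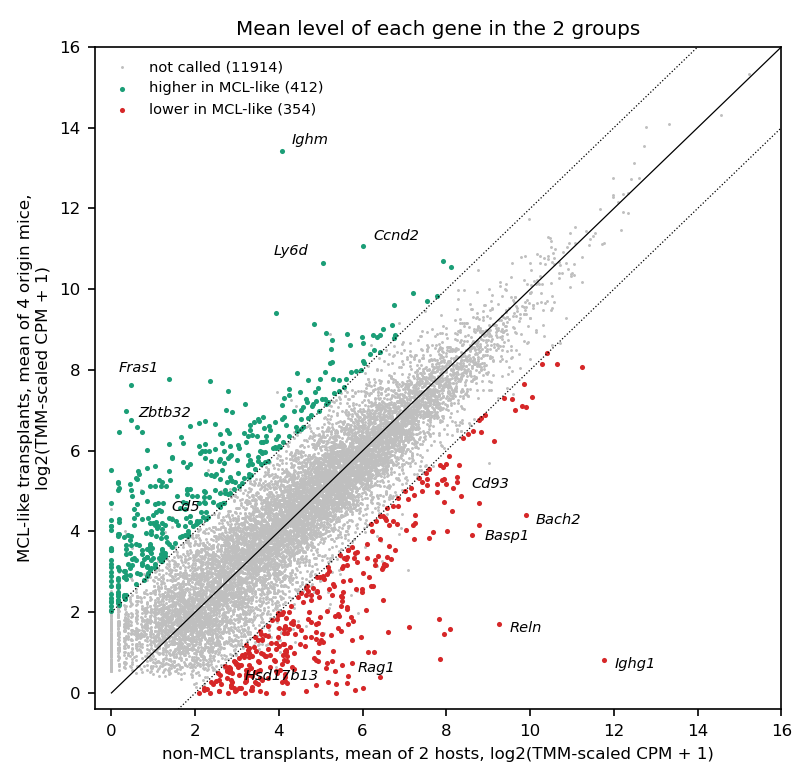
Mean level of each of the 12680 genes in the non-MCL transplants (x, 2 hosts) and the MCL-like transplants (y, 4 origin mice), both log2(TMM-scaled CPM + 1). The 412 green genes were called higher and the 354 red genes lower in MCL-like transplants; dotted lines mark 4-fold.

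The called genes of the B1 cell list were higher in the MCL-like tumours. Of 20 listed genes that passed the filter (of 21), 6 (30%) were called higher and 0 lower. For all genes the shares were 3.25% and 2.79%, and each list below is to be read against them. The median difference of the B1 list was 1.48 ± 0.19, with 18 of 20 above 0. The key marker Cd5 (chr19:10717116-10739002) was at 25.3, 38.8, 13.3, 13.4, 15.1 and 33.6 CPM against 0.754 and 1.98 CPM, 3.30 ± 0.66. Cd5 was low in the B and C libraries and higher in A and D, with no overlap with E. The groups were taken by immunophenotype, and surface CD5 may have entered that label. The Cd5 difference may thus be set by the grouping and is no separate support for it. T cells also express Cd5, and the T cell list is given further on.

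Arid3a, a transcription factor of B1 and fetal-type B cells, was at 279 to 753 CPM (median 548) against 61.1 and 18.9 CPM, 3.78 ± 0.65. Fcrl5, an inhibitory receptor of marginal zone and B1 cells, was at 14.8 to 57.4 CPM (median 36.5) against 1.26 and 0.565 CPM, 4.22 ± 0.79. Cd9, a tetraspanin of B1, marginal zone and plasma cells, was at 31.97 to 87.3 CPM (median 50.7) against 1.26 and 3.67 CPM, 4.02 ± 0.54. Itgam, the CD11b integrin of peritoneal B1 cells and of myeloid cells, was at 4.82 to 18.7 CPM (median 11.6) against 1.51 and 0.565 CPM, 2.37 ± 0.68. Zbtb32, described above, was the 6th. The ranges did not overlap for any of them.

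Several B1 genes did not meet the call. Spn, which encodes CD43, was at 102, 62.2, 51.6, 47.3, 40.4 and 265 CPM against 29.1 and 31.6 CPM, 1.38 ± 1.20, below the 4-fold threshold although no MCL-like library was as low as E. Nfatc1 (2.40), Ahr (2.25) and Plscr1 (2.16) passed the 4-fold size, but their ranges overlapped. Ctla4 was at 1.005 and 40.4 CPM in the E hosts against 0.703 to 8.49 CPM (median 3.84).

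Sox5, a key gene known from B1 and atypical memory B cells, was called higher, at 42.8, 83.9, 73.8, 62.7, 45.9 and 84.2 CPM against 3.01 and 3.95 CPM, 3.84 ± 0.36. Its level varied less among the MCL-like origins than that of Cd5. Sox11, which marks many human mantle cell lymphomas, did not pass the filter and had no count in any of the 8 libraries. Fcer2a, which encodes CD23 of follicular B cells, did not pass either, at 0 to 0.342 CPM against 0.754 and 33.6 CPM.

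Follicular genes showed no common direction. Of 11 that passed, 1 (9.09%) was called higher and 2 (18.2%) lower, with a median of -0.02 ± 0.58. The higher gene was Itgb7, an integrin subunit for gut homing, at 262, 335, 20.4, 18.8, 21.03 and 167 CPM against 6.53 and 5.65 CPM; the B and C libraries were well below A and D. The lower genes were Bach2 and Satb1, a chromatin organiser, which was at 10.6 and 107 CPM in the E hosts and 1.21 to 5.01 CPM (median 3.84) in MCL-like libraries; without E host 2 it was not called (-1.51). Of 10 marginal zone genes, only S1pr3, a sphingosine phosphate receptor, was called, at 10.5 to 66.1 CPM (median 44.5) against 0 and 0.847 CPM, a difference of 4.74; the list median was 0.93 ± 0.92 (0.48 without E host 2).

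Both recombinase genes were among the precursor B cell genes called lower in the MCL-like tumours. Of 14 that passed (of 18), 4 (28.6%) were called lower and 1 (7.14%) higher, with a median of -1.50 ± 1.09. Rag1 (chr2:101638282-101649501) was at 80.9 and 29.4 CPM in the E hosts and 1.25, 1.39, 0.351, 0, 0 and 0.201 CPM in MCL-like libraries, -5.22 ± 0.54. Rag2 was at 15.6 and 3.39 against 0.250, 0.558, 0, 0, 0 and 0 CPM, -2.97 ± 0.24. Only the A hosts held Rag1 above 1 CPM among MCL-like libraries.

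Cd93, a surface marker of immature and transitional B cells, was at 480.1 and 222 CPM in the E hosts and 21.7 to 35.3 CPM (median 30.1) in MCL-like libraries, -3.48 ± 0.26. The 6 MCL-like values lay within a narrow band. Flt3, a cytokine receptor of progenitors and dendritic cells, was at 8.54 and 21.7 against 0.402 to 1.12 CPM (median 0.975), -3.06 ± 0.24. The gene called higher was Lef1, a Wnt pathway transcription factor of pro-B cells, at 18.03, 20.6, 55.5, 65.1, 52.6 and 84.8 CPM against 1.005 and 1.13 CPM, 4.56 ± 0.89. Il7r, the interleukin 7 receptor, was at 20.6 and 683 CPM in the E hosts and was not called, since host 1 lay within the MCL-like range.

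The surrogate light chain genes set the E tumour apart from primary tumours of the same label. Vpreb1 was at 43.8, 61.9, 1.76, 4.79, 20.8 and 3.82 CPM in MCL-like transplants and 2.76 and 0.847 CPM in the E hosts, against 2378 to 5334 CPM in the 3 Ccnd2 non-MCL primaries. Vpreb3 was at 48.8 to 125 CPM (median 52.7) in MCL-like transplants and 407 and 146 CPM in the E hosts, against 996 to 1308 CPM in those primaries. Neither gene was called between the transplants. Igll1, the partner of Vpreb1, differed by 1.19 ± 1.37 and was not called.

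Some germinal centre genes were lower in the MCL-like tumours. Of 9 that passed (of 12), 4 (44.4%) were called lower and 0 higher, and the median was -2.04 ± 0.19, with 2 of 9 above 0. Basp1, a membrane-attached signalling protein, was at 295 and 513 CPM in the E hosts and 14.5, 19.8, 24.6, 28.4, 20.8 and 3.62 CPM in MCL-like libraries, -4.71 ± 1.16. The D library was lowest for Basp1, and E host 2 stood above host 1. Mybl1, a proliferation-linked transcription factor, was at 20.6 and 15.8 against 13.5, 11.99, 1.76, 1.37, 2.58 and 1.005 CPM, with the A hosts close to the E hosts. Neil1, a DNA glycosylase, was at 163 and 163 against 16.9 to 68.1 CPM (median 36.6), -2.04 ± 0.63. Mybl1 was not called without D (-1.93), nor Neil1 without B (-1.79) or its first host (-1.94). Bcl6, the master repressor of the germinal centre, differed by -1.03 ± 0.59 and was not called, and Fas by 0.19 ± 0.55.

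The plasma cell list gave calls in 1 direction. Of 12 that passed, 4 (33.3%) were called higher and 0 lower, with a median of 1.48 ± 0.42 (2.43 without E host 2). Derl3, of endoplasmic reticulum quality control, was at 166, 98.4, 119, 87.7, 116 and 78.2 CPM against 6.28 and 14.4 CPM, 3.32 ± 0.30. Xbp1, the transcription factor of the unfolded protein response, was at 322, 241, 70.6, 79.8, 139 and 52.05 CPM against 18.1 and 34.4 CPM, 2.11 ± 1.05, with the A hosts highest. Creld2, a chaperone cofactor, differed by 2.11 ± 0.81 and Ell2, an elongation factor for secreted heavy chain, by 2.01 ± 0.40. Without E host 1 only Derl3 of these kept its call: Xbp1 was at 1.66, Creld2 at 1.91 and Ell2 at 1.22. Without A, Xbp1 (1.67) and Creld2 (1.71) were not called. Ell2 was also under the threshold without MCL-like replicate 1, 4, 5 or 6 (1.88 to 1.98).

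The other 8 genes of the list were not called. Edem1, a lectin of glycoprotein degradation, was at 123 to 234 CPM (median 175) against 53.5 and 44.03 CPM, without overlap but below the 4-fold size. Fkbp11, a secretory pathway isomerase, was at 0.343 to 111 CPM (median 3.92) against 12.1 and 6.77 CPM, with both E hosts inside the MCL-like range. Prdm1, which encodes Blimp-1, differed by 0.84 ± 1.04 and Irf4 by 0.52 ± 0.86. Sdc1, which encodes CD138, differed by 0.65 ± 1.03. Jchain was at 1943, 769.5, 44.3, 59.2, 98.9 and 62.3 CPM in MCL-like and 21.6 and 382 CPM in non-MCL libraries. The A hosts were highest and the E hosts lay far apart in this gene.

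Pan-B cell genes were measured in both groups, with calls in both directions. Of 18 that passed, 3 (16.7%) were called higher and 1 (5.56%) lower, against 3.25% and 2.79% of all genes, with a median of 0.48 ± 0.47. Cd79b, a chain of the B cell receptor, was at 376 to 734 CPM (median 432) against 304 and 332 CPM and was not called. It was present in all 8 libraries, as the B lineage label requires. Besides Ighm, the higher genes were Ms4a1, which encodes CD20, at 763 to 1397 CPM (median 983) against 251 and 83.6 CPM, 2.72 ± 0.30, and Cd37, a tetraspanin, at 259 to 611 CPM (median 505) against 178 and 66.9 CPM. Without E host 2 neither was called (1.93 and 1.39), nor was Cd37 without B (1.97). Ebf1, the early B cell factor, was called lower, at 103 to 316 CPM (median 208) against 918 and 925 CPM, -2.20 ± 0.52 (-1.98 without A, under the threshold). Spib differed by 3.67 ± 1.45 with overlapping ranges.

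**Figure D4:**
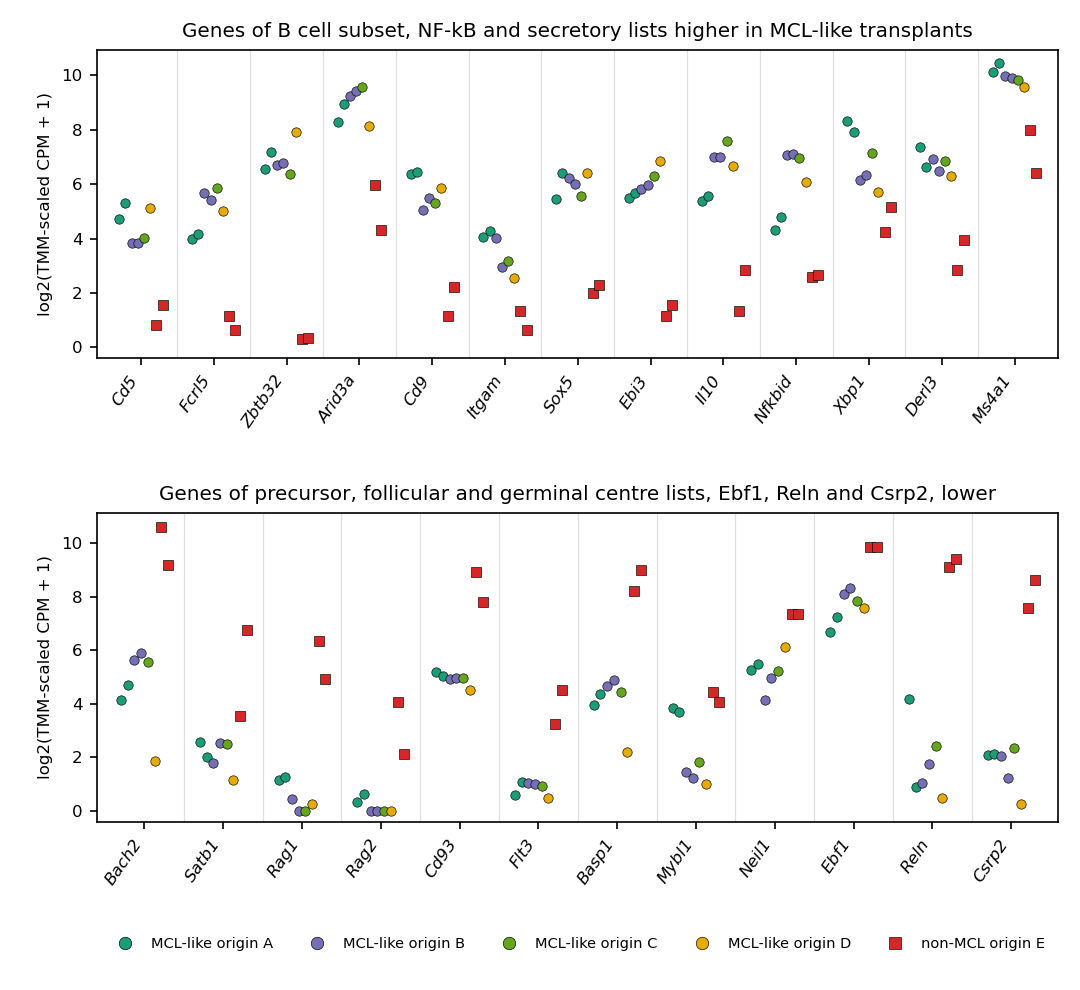
Levels of 13 genes called higher (top) and 12 called lower (bottom) in MCL-like transplants, as log2(TMM-scaled CPM + 1), in each library (circles MCL-like, squares non-MCL, colour by origin mouse). No square lies within the circles of its gene; Rag1, Rag2 and Flt3 are near 0 in the MCL-like libraries.

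Of the 3 signalling lists, that of NF-kB genes held the most calls. NF-kB transcription factors are held in the cytoplasm by inhibitor proteins and, once released, induce cytokines, survival genes and their own inhibitors. Of 22 that passed (of 23), 5 (22.7%) were called higher and 0 lower. The median was 1.34 ± 0.29 (0.80 without E host 1), with 18 of 22 above 0. The called genes were 3 members of the IkB inhibitor family and 2 cytokine genes, and no subunit of the factor itself was called. Upstream windows are shown for 2 of the IkB genes, since these genes moved together and are known targets of the pathway. They are the 250 bases before a RefSeq start site (GRCm38.p6), 5′ to 3′, with matches to GGGNNTTCC on either strand in capitals (the reverse strand reads GGAANNCCC).
Nfkbid (chr7:30422156-30422405, plus strand): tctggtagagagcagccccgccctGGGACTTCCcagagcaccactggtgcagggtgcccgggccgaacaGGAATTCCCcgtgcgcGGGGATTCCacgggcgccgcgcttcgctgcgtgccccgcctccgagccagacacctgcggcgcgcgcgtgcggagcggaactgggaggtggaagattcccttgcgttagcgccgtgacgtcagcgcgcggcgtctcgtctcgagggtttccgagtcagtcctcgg
Nfkbie (chr17:45555450-45555699, plus strand): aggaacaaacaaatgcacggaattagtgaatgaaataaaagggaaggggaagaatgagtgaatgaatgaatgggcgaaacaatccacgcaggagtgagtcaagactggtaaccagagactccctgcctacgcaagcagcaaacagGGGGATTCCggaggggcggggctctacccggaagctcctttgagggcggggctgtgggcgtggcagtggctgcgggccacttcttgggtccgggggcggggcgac

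The Nfkbid window holds 3 matches, beginning 226, 181 and 165 bases before the start; 2 other Nfkbid start sites in the table have none. The Nfkbie window holds 1, beginning 105 bases before the start. Windows of Bcl3 and Ebi3 hold 1 each, 104 and 44 bases before the start. All 4 called genes found in the table thus held a match in at least 1 window. Il10 had no entry. Of 17 listed NF-kB genes in the table, 7 held a match in at least 1 window (41.2%), against 1517 of all 27025 genes (5.61%). The list was chosen as NF-kB genes, so this higher share describes the list and says nothing about these tumours. A match in the letters is a description, not a binding site.

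Nfkbid, which encodes the nuclear inhibitor IkBNS that B1 cells need, was at 19.03, 26.8, 135, 137, 124 and 67.5 CPM in MCL-like libraries and 5.02 and 5.36 CPM in non-MCL libraries, 3.55 ± 1.17. The A hosts were lowest among MCL-like libraries, and all stood above E. Nfkbie, the cytoplasmic inhibitor IkB-epsilon, was at 10.3, 21.2, 83.6, 95.9, 138 and 60.3 CPM against 5.28 and 7.34 CPM, 3.03 ± 1.36, with A again lowest. Bcl3, a nuclear co-activator of the IkB family, was at 31.3 to 66.05 CPM (median 54.1) against 2.01 and 12.98 CPM, 3.01 ± 0.41 (1.90 without E host 1, under the threshold).

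Of the cytokine genes, Il10, the anti-inflammatory interleukin made by B1 cells among others, was at 41.1, 46.01, 126, 127, 192 and 102 CPM against 1.51 and 6.21 CPM, 4.60 ± 0.89. Ebi3, a subunit of interleukins 27 and 35, was at 44.1, 49.6, 55.5, 61.98, 78.03 and 115 CPM against 1.26 and 1.98 CPM, 4.79 ± 0.55. Both were low in both E hosts and present in every MCL-like library. The subunit genes differed less: Nfkb2 by 1.64 ± 0.33, Nfkb1 by 1.14 ± 0.69, Relb by 0.81 ± 0.14, Rel by 0.06 ± 0.70 and Rela by -0.70 ± 0.21. Malt1, a paracaspase that links antigen receptors to NF-kB, was at 189, 263, 82.2, 68.1, 82.1 and 98.3 CPM against 36.2 and 73.1 CPM; E host 2 lay within the MCL-like range and the gene was not called.

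Of 24 genes of B cell receptor signalling, 1 (4.17%) was called higher and 0 lower, a share near the 3.25% of all genes, with a median of 0.44 ± 0.38. It was Prkcb, the protein kinase C of this pathway, at 218, 345, 1133, 1224, 999 and 1149.9 CPM against 121 and 95.4 CPM, 2.85 ± 1.01. The A hosts were between E and the other MCL-like libraries. Zap70, a kinase of T cells and some B cell leukaemias, was at 1.75 to 5.83 CPM (median 2.32) against 8.79 and 7.90 CPM and was not called.

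Among 15 early response genes, 3 (20%) were called higher and 0 lower, with a median of -0.04 ± 1.02. Egr1 was at 13.8, 17.6, 52.3, 61.6, 43.9 and 104 CPM against 4.02 and 6.77 CPM, 2.88 ± 1.11. Ier2 was at 11.8 to 27.3 CPM (median 17.7) against 1.51 and 3.67 CPM, 2.55 ± 0.41, and Egr2 at 0.836 to 7.53 CPM (median 4.76) against 0.251 and 0 CPM (1.98 without E host 2, 1.97 without B and 1.92 without D, each under the threshold). Other members went the opposite way without a call, Nr4a2 by -1.96 ± 0.34 and Dusp2 by -0.88 ± 1.27.

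Among cell cycle genes, calls fell on the G1 list. Of 19 G1 genes, 3 (15.8%) were called higher (Ccnd2, Cdk6 and Rb1) and 0 lower, with a median of -0.13 ± 0.31. Cdk6, a kinase partner of D cyclins, was at 120.0, 130.2, 268, 306, 224 and 287 CPM against 23.6 and 61.5 CPM, 2.49 ± 0.56 (1.81 without E host 1, under the threshold). Rb1, whose product D cyclin kinases phosphorylate, was at 93.7, 69.1, 90.99, 83.9, 78.2 and 78.8 CPM against 16.8 and 8.47 CPM, 2.66 ± 0.07. Rb1 varied little among the 4 MCL-like origins.

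The other D cyclins were not called. Ccnd1 was at 23.8, 98.7, 5.27, 3.77, 1.48 and 1.005 CPM in MCL-like libraries, where only the A hosts were above 6 CPM, and 3.77 and 3.10 CPM in the E hosts. Ccnd3 was at 319.6, 169.5, 116, 102, 167 and 169 CPM against 117 and 377 CPM. E host 2 had the highest value of all 8 libraries and host 1 lay within the MCL-like range.

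None of 24 proliferation genes was called in either direction, and their median was -0.62 ± 0.14 (-0.19 without E host 1 and -0.96 without E host 2), with 3 of 24 above 0. Top2a, a topoisomerase of dividing cells, was at 1155, 867, 1259, 1192, 1009 and 1059.9 CPM against 2148 and 1847 CPM. Mki67 was at 613, 248, 568, 457, 496 and 231 CPM against 529 and 376 CPM, with both E hosts inside the MCL-like range. Top2a, Cenpf (-1.88), Bub1b, Cenpa, Kif11, Mcm6 and Pcna had both E hosts above every MCL-like library, below the 4-fold size. In each other gene of the list, at least 1 E host lay within or below the MCL-like range. Of 13 p53 target genes, 1 (7.69%) was called, lower. It was Ckap2, at 8.84 to 23.3 CPM (median 10.1) against 172 and 55.04 CPM. The median of the p53 target list was 0.17 ± 0.46. None of 14 genes of the Myc list was called (median -0.22 ± 0.37).

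Survival, homing and receptor genes gave 1 to 3 calls a list. Bcl2, the survival factor, was the 1 called gene of 14 in its family (7.14%). It was at 264, 316, 408, 391, 411 and 267 CPM against 29.6 and 171 CPM, 2.21 ± 0.32. The 2 E hosts differed more than 5-fold and host 2 was nearer to the MCL-like values. Without host 1 the difference was 0.97 and the gene was not called. Itgal, the alpha subunit of LFA-1, was at 57.8 to 142 CPM (median 77.6) against 7.54 and 4.80 CPM, 3.62 ± 0.50. With Itgb7 and S1pr3 it made 3 of 18 homing genes (16.7%) called higher, with 0 lower and a median of 0.93 ± 0.24.

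In the list of TNF family receptors and ligands, Ltb, lymphotoxin beta, was called higher at 13 to 37.1 CPM (median 21.3) against 0 and 1.13 CPM, 4.01 ± 0.61. Tnfsf13b, the ligand BAFF, was called lower at 0.703 to 3.26 CPM (median 1.54) against 9.55 and 22.9 CPM, -2.59 ± 0.37. These were 2 of 9 that passed (11.1% in each direction), and the median was 1.27 ± 0.42 (0.81 without A). The receptors Tnfrsf13b (1.99), Tnfrsf13c (2.52) and Cd40 (1.82) had positive differences without a call.

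Antigen presentation and interferon genes gave no calls. None of 10 MHC class II genes was called (median -0.05 ± 0.39, -0.51 without E host 1 and 0.46 without E host 2), nor any of 16 interferon response genes (median 0.41 ± 0.36). H2-Aa, a class II chain, was at 2254, 2174, 1615, 1653, 1396 and 2869 CPM in MCL-like libraries and 994 and 3091 CPM in the E hosts, which lay on either side of the MCL-like range. Ccnd2 non-MCL primaries held 43.2 to 132 CPM of H2-Aa, well below both E hosts. In glycolysis and hypoxia, 1 gene was called higher and 1 lower of 19 (median 0.29 ± 0.43). Each is 5.26%, near the shares of all genes. The lower gene was Bnip3, a mitophagy receptor, at 0.201 to 2.25 CPM (median 1.26) against 10.1 and 28.2 CPM.

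**Figure D5:**
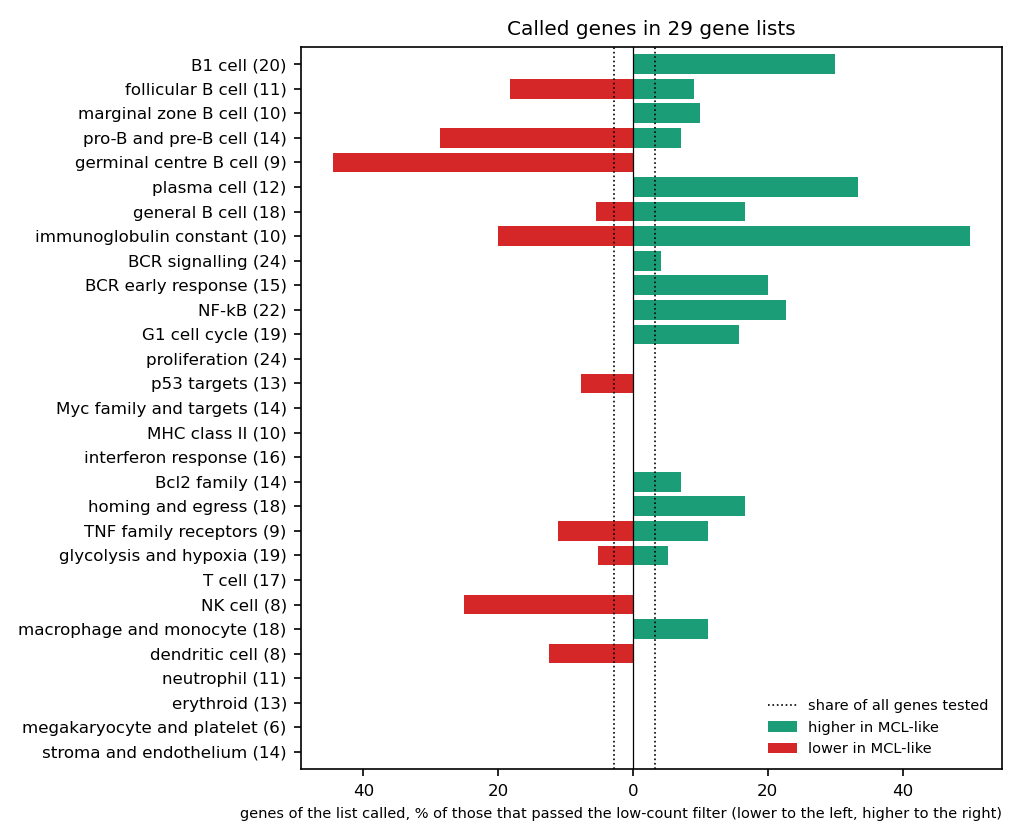
Share of the genes of 29 lists called higher (green, to the right) or lower (red, to the left) in MCL-like transplants, in % of the members that passed the low-count filter (number in brackets); dotted lines mark the shares of all 12680 genes, 3.25% and 2.79%. Immunoglobulin constant, plasma and B1 cell genes have the longest bars to the right, and germinal centre genes the longest to the left.

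Markers of other cells of the spleen or host were read beside these results. In bulk samples, fewer cells of a type and less RNA per cell cannot be told apart. Of 17 T cell markers that passed (of 18), 0 were called, the median was -0.56 ± 1.07, and 4 of 17 were above 0. Their summed level was 285 to 432 CPM (median 301) in MCL-like and 221 and 224 CPM in non-MCL libraries, of which Cd2 alone, which mouse B cells also express, made up 170.0 to 296 CPM (median 193) against 116 and 80.4 CPM. The part of T cells in the Cd5 difference was not tested. NK markers gave 2 lower calls of 8 that passed, Klrb1c at 18.6 and 5.08 CPM in the E hosts against 0 to 0.836 CPM (median 0.0922), and Gzma at 6.53 and 11.6 against 0 to 4.51 CPM (median 0.272). The summed NK level was 5.02 to 38.01 CPM (median 22.2) against 61.1 and 60.7 CPM. Of the listed NK markers, Ncr1, Klrd1, Klra8 and Klre1 did not pass the filter.

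Of 18 macrophage and monocyte markers, Lyz2 and Ly6c2 were called higher and 0 lower, and the median was -0.01 ± 0.83. Ly6c2, which some lymphocytes and plasma cells also express, was at 678, 257, 5.97, 6.51, 7.56 and 28.5 CPM against 5.02 and 1.41 CPM, and was not called without A (1.68). Lyz2 was not called without C (1.82), without B (1.98) or without E host 2 (1.93). The summed macrophage level was 306 to 1664 CPM (median 663) against 356 and 660.0 CPM. Of 8 dendritic cell markers, Flt3 alone was called, with the same values as in the precursor list. None of 11 neutrophil, 13 erythroid, 6 megakaryocyte or 14 stromal markers was called.

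Erythroid and stromal RNA varied between libraries, and the E hosts lay within the MCL-like range of both. Summed erythroid markers were at 137477, 10879.7, 1119, 1786, 1039 and 370.2 CPM in MCL-like replicates 1 to 6 and 2463 and 3437 CPM in the E hosts. Summed stromal and endothelial markers were at 671, 502, 166, 153, 163 and 131 CPM against 286 and 231 CPM. The A hosts held the most of both, and the part of these cells in the values of A was not tested.

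Hosts of the same tumour differed most in E. With a difference of at least 4-fold in 666 genes, the 2 libraries of this tumour were further apart than those of A or B. Rsph1, a ciliary radial spoke protein, was at 400.2 and 1.41 CPM in E hosts 1 and 2, Uchl1, a neuronal deubiquitinase, at 155 and 0.565, and Edaradd, a death domain adaptor, at 77.9 and 0. Il7r and Prlr, the prolactin receptor, went the other way, Prlr at 0.502 and 117 CPM. A tumour with 2 unlike hosts gives a coarse reference, and each call between the groups therefore requires both hosts to lie outside the MCL-like range. The counts between pairs of libraries have no such condition.

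In A, the largest differences between hosts were erythroid. Aqp1, a water channel of red cells, was at 642 and 25.1 CPM, the blood group protein gene Kel at 140.2 and 5.30, and Mir451a, an erythroid microRNA gene, at 95.7 and 1.95. In B they were small: Camp, a neutrophil granule peptide, at 16.9 and 54.8 CPM, Atp9b at 64.6 and 23.3, and Tbc1d13 at 53.4 and 20.2.

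The MCL-like tumours also varied among themselves. Over the 4 origins, 2014 genes (15.9%) had a range of at least 4-fold, and 600 without A. Cdkn2a, the locus of the inhibitors p16Ink4a and p19Arf, was at 243, 392, 1032, 1243, 1198 and 1.005 CPM, near 0 in D and high in the rest, and at 491 and 1196 CPM in the E hosts. The primary tumour of D held 1.57 CPM, that of A 483 and that of B 421. The neighbouring gene Mtap was at 11.8, 19.2, 46.02, 61.3, 48.7 and 62.9 CPM, with D the highest. The state of this locus was not measured.

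Other wide ranges set A apart from B, C and D, and a few set D apart. Ttn, the muscle protein titin, was at 446, 390.3, 2.46, 3.08, 4.61 and 1.21 CPM, Raph1, an actin regulator, at 305, 315, 8.43, 7.53, 6.46 and 0.402 CPM, and Cd59a, a complement regulator, at 326, 369, 7.73, 6.85, 7.38 and 1.81 CPM. The primary tumour of A held 289 CPM of Raph1 and 440.0 of Cd59a. Both were high in the 2 hosts of A and in its primary, as was Ttn. Sparc, a matrix protein of stromal cells, was at 348, 280.2, 1.05, 4.45, 2.77 and 1.21 CPM. Xist, transcribed from the inactive X chromosome, was at 1052, 813, 3.16, 3.08, 2.21 and 7.64 CPM; host and tumour cells were not separated.

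Iigp1, an interferon-induced GTPase, was at 19.8, 16.2, 178, 194, 182 and 0 CPM, absent from D and highest in B and C. Apol11b, of the apolipoprotein L family, was at 298, 56.04, 10.9, 21.2, 14.9 and 0 CPM, with no count in D. None of these genes was called between the groups, since the E values lay inside these ranges or the mean difference was under 4-fold.

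The transplant differences were set beside the primary tumours, without a test, since primaries of A, B and D are the same tumours as 5 of the MCL-like transplants. Of the 412 genes called higher in MCL-like transplants, 364 (88.3%) had a higher median in the 4 MCL-like primaries than in the 3 Ccnd2 non-MCL primaries, against 52.2% of all 12680 genes. In 143 (34.7%) every MCL-like primary was above every Ccnd2 non-MCL primary, against 7.56% of all genes. Of the 354 genes called lower, 266 (75.1%) had a lower median in MCL-like primaries, against 47.5% of all, and in 103 (29.1%) the ranges did not overlap, against 7.42%.

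Single genes show where the E tumour and the Ccnd2 non-MCL primaries differed. Cd5, Sox5 and Zbtb32 were low in E and had medians of 0.562, 1.97 and 2.81 CPM in those primaries. Lef1 was at 116 to 217 CPM in those primaries and 13.5 to 52.8 CPM in MCL-like primaries, opposite to its order among the transplants. Cdk6 was at 209 to 1071 CPM against 68.7 to 278 CPM, also opposite in its median. Ighm was at 1456 to 3772 CPM in those primaries, Ighg1 at 0 to 158 and Basp1 at 15.2 to 29.4. Rag1, at 52.4 to 191 CPM against 0 to 0.327, and Cd93, at 326 to 770.1 CPM against 4.90 to 62.1, kept the order seen among the transplants.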

How the data were processed

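RNA of lymphoma cells was sequenced from the 3′ end (QuantSeq), per the labels' protocols, and the submitters' processing notes name FastQC, the aligner STAR and the build GRCm38. No source used here gives the versions, counter, strand setting or annotation. The authors deposited unnormalized counts for each gene, taken without change. GENCODE M21 gave a symbol for 52403 of 52636 genes. Antisense, overlapping and near-identical genes can share reads.

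Samples were grouped by the immunophenotype field. Counts were scaled to CPM with the TMM factors of edgeR 4.0.16 (R 4.3.3) over all 22 libraries, and filterByExpr on the 2 transplant groups left 12680 genes. The pseudocount was 1 CPM. The non-MCL side is a single tumour, so no test was run in the main comparison; fits of 4 origins against 1 with edgeR and DESeq2 1.42.0 were alternatives, and assume that the lone tumour varies like the MCL-like ones. No 2 transplant libraries were alike within counting noise (smallest chi-square per degree of freedom 5.47). The call rule and fits were also run on simulated data in which hosts of the same tumour differed by counting noise alone. The real E hosts differed at least 4-fold in 666 genes, so the simulation does not check the calls against E.

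Members and gene lists were chosen with earlier results of these data known. Named genes are key genes, the 12 largest called increases and decreases of at least 20 CPM, up to 3 called genes per list, and the widest host and origin differences (50 CPM). Other called list members, and uncalled genes given for contrast (among them Itgam, Nfkbie, Bcl3, Ell2, Neil1, Cd37, Rag2, Mtap, Prlr, Edem1, Fkbp11 and Cd2), were named after their values were seen. Not every gene under this rule is reported here. Scaling, pseudocount, filter, threshold, averaging and left-out libraries were varied.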

Additional observations from a re-analysis of the deposited data

Results flagged for a closer look

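Among 96 values examined over the 4 MCL-like origin mice, 10 had an origin mouse far from the other 3 by the 95% critical value of Dixon's gap test; chance gives about 1 in 20 for 4 independent mice, which B and C may not be. In 8 of them it was A, the tumour whose libraries hold the most erythroid and stromal RNA. A was low for Fras1, at 135 CPM against 216 to 233 CPM, for Prkcb, at 274 CPM against 999 to 1178 CPM, and for Fah, at 6.12 CPM against 110 to 171 CPM. A was high for Ckap2, at 20.2 CPM against 8.84 to 10.1 CPM, for Gzma, at 3.73 CPM against 0 to 0.201 CPM, and for Rbm44, at 0.396 CPM where the others had no count; this is 1 count in one host and 2 in the other.

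The summed T cell markers of A were at 419 CPM against 285 to 303 CPM, and its stromal and endothelial markers at 580.5 CPM against 131 to 163 CPM. D was high for summed germinal centre genes, at 160 CPM against 103 to 108 CPM. Qrfp was at 0.184 CPM in C, a single count, and had none in the others. With the others at 0 the gap is the whole range by construction, so the Qrfp and Rbm44 values show no difference between the tumours. The parts of T, erythroid and stromal cells in the values of A were not tested.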

How the results depend on the processing

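The 412 higher and 354 lower calls stayed within 1.5 times under other scalings (376 to 407 higher, 344 to 375 lower), a pseudocount of 0.5, no filter, each library counted once, and B and C as 1 origin. None of the named genes with a call changed its sign, which does not cover named genes without a call. Of 77 called genes that were named or listed, 9 lost the call without E host 1, 5 without E host 2 and 5 without A. Under each other left-out library or origin, other scaling, or B and C as 1 origin, 0 to 4 lost it. With B and C as 1 origin these were Cd37 (1.99), Ell2 (1.97), Lyz2 (1.87) and Neil1 (-1.93). A pseudocount of 5 gave 201 and 156, a threshold of 1 on the log2 scale 1230 and 936, and a threshold of 3 156 and 135; fewer genes meet a stricter rule by construction. With library totals the split was 376 higher and 375 lower. Leaving out 1 library or origin gave 414 to 586 higher and 347 to 548 lower calls, the last without A. Of the 12680 genes, edgeR's quasi-likelihood test of 4 origins against 1 called 4 higher and 11 lower at an adjusted p under 0.05 (950 and 897 at an unadjusted p under 0.05), and DESeq2 600 and 352; with 1 non-MCL tumour these counts support no gene here, and the cause of the gap was not tested.

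A pseudocount of 5 gave list medians of 1.24 for B1, -1.44 for germinal centre, 0.63 for homing and 0.62 for TNF family genes. The TNF family median was 1.70 with B and C as 1 origin and 0.81 without A, and the plasma cell median 1.04 without A. Over left-out libraries the medians ran from 0.56 to 1.44 for key genes, 1.46 to 1.73 for B1, -2.14 to -1.73 for germinal centre, 1.25 to 2.43 for plasma cell, 1.55 to 2.82 for immunoglobulin constant, 0.80 to 1.57 for NF-kB, -0.96 to -0.19 for proliferation and 0.64 to 1.09 for homing genes. They crossed 0 for early response (-0.24 to 1.02), MHC class II (-0.51 to 0.46), Bcl2 family (-0.38 to 0.53) and neutrophil genes (-1.09 to 0.87), mostly with the E host left out. With a pseudocount of 5, 107 genes differed 4-fold between the A hosts, 0 between the B hosts and 249 between the E hosts. The genes with a 4-fold range over MCL-like origins numbered 722 with that pseudocount, 600 without A and 1302 without D. No paired analysis was possible because the replicate numbers name hosts of different tumours.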
